A study of Mus musculus with 2 samples.

Results

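Retinoic acid is a small lipid signal that cells make from vitamin A, and the 10 genes described here make it, destroy it or receive it. They are Rdh10, Aldh1a1, Aldh1a2 and Aldh1a3 for synthesis, Cyp26a1, Cyp26b1 and Cyp26c1 for breakdown, and Rara, Rarb and Rarg for reception. The genes were taken by symbol from a table of 23930 amplicon targets, 1 per gene, and each of the 10 symbols had a target. The table holds 2 libraries, called library 1 and library 2 after the number in their titles, which form 1 group: RNA from the coronal, sagittal and lambdoid sutures, the fibrous joints of the skull roof, of wildtype mouse pups at postnatal day 3. There is no treated, mutant or older group, so no condition could be compared. The labels name suture stem cells as the cell type, but the extraction they describe starts from whole suture tissue with no sort, and whether the samples stem from different pups is not stated. All p-values set the difference between these 2 samples against counting error alone, and they cover no spread between pups or preparations. A difference between the samples may be technical.

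Retinol is taken up by cells and oxidised to retinal, a step in which Rdh10 is the main embryonic enzyme, and the Aldh1a dehydrogenases then turn retinal into retinoic acid. The Cyp26 cytochromes inactivate it, so that the level in a tissue depends on where the makers and the breakers are expressed. Retinoic acid binds the nuclear receptors Rara, Rarb and Rarg, which sit on DNA as pairs with retinoid X receptors. In the skull vault the signal is known for its effect on bone formation, and loss of CYP26B1 function in humans is known to cause fusion of the sutures and other skeletal defects.

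Library 1 held 5663344 reads and library 2 held 15802610, so a level in library 2 has the smaller counting error. Values are CPM, reads of a target scaled to a fixed total per library. A short stretch of each gene is amplified with its own primers, so values do not scale with gene length. How well each amplicon works is not known, and an order among genes is therefore weaker evidence than a difference of the same gene from library to library. Markers of the labelled tissue were present. All 8 suture mesenchyme markers reached 1 CPM in both libraries, as did all 7 osteoblast markers, led by Col1a1 and Spp1. In the exact binomial test described below, 5 of the 8 suture markers (summed level 299 CPM in library 1 and 421 CPM in library 2) and all 7 osteoblast markers (122165 and 139004 CPM) were higher in library 2. Pdgfra had 47.0 CPM in library 1 and 83.8 CPM in library 2, and Twist1, the 1 suture marker called higher in library 1, had 124 and 72.8 CPM. That test called 69.5% of targets at a mean of 10 CPM or more, 37.0% as higher in library 2 and 32.5% as higher in library 1. A count of called markers is to be read beside those shares. Markers of other tissues were present too and differed in the same test. All 7 skeletal muscle markers were higher in library 1 (summed level 39597 CPM, against 12178 CPM in library 2). All 8 olfactory markers (97.1 and 544 CPM), all 7 cartilage markers (1529 and 4621 CPM), all 6 tooth germ markers (119 and 531 CPM) and 5 of 7 meningeal markers (177 and 392 CPM) were higher in library 2, the first value of each pair being that of library 1.

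Of the 10 retinoic acid genes, 8 reached 1 CPM in both libraries, a level that 55.0% of all targets reached. At 10 CPM in both libraries there were 5 of 10, beside 34.6% of all targets. Their median level was 16.5 CPM, against 3.29 CPM over all targets. The receptors Rara and Rarg were the most abundant, Cyp26b1 came next, the Aldh1a genes, Rarb and Rdh10 formed a middle range, and Cyp26a1 and Cyp26c1 lay at the limit of detection.

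**Figure D1:**
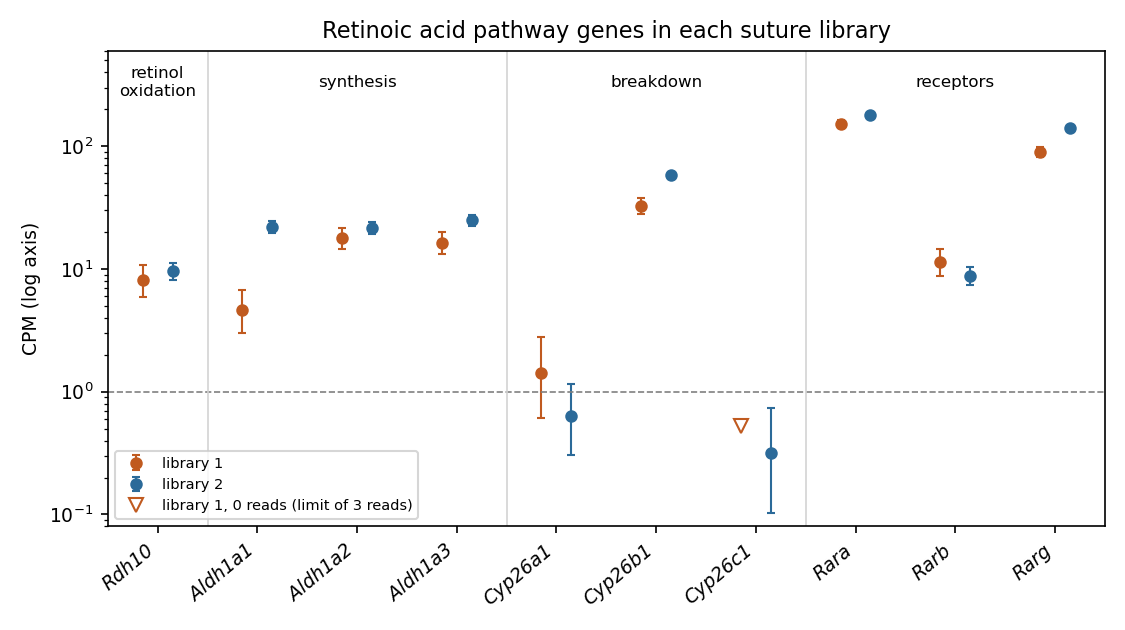
Level of each gene in CPM on a log axis in library 1 and library 2; points are the deposited values, bars are exact 95% Poisson intervals of the reads, the dashed line is 1 CPM and the open triangle is the limit that 0 reads allow. Rara and Rarg lie highest in both libraries, the 2 values of Aldh1a1 lie furthest apart among the genes above 1 CPM in both, and Cyp26c1 stays below 1 CPM.

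Synthesis was represented by all of its enzymes. Rdh10, which oxidises retinol to retinal, stood at 8.12 CPM (46 reads) in library 1 and 9.56 CPM (151 reads) in library 2, or 8.84 CPM ± 1.01 (SD, n = 2). The libraries did not differ beyond counting error (fold 0.850 of library 1 over library 2, exact 95% interval 0.597 to 1.19, adjusted p = 0.627 in the exact binomial test over all targets). On mm10 (GRCm38, annotation GENCODE M21) Rdh10 spans positions 16105774 to 16133734 of chromosome 1, plus strand, and the genes below are placed in the same annotation. Which part of each gene the amplicon covers is not stated.

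Aldh1a2, the main retinoic acid maker of the early embryo and also known from the meninges, had 17.8 CPM in library 1 and 21.5 CPM in library 2 from 101 and 340 reads. The values were close, with a mean of 19.7 CPM ± 2.60 (SD, n = 2) and a fold of 0.829 (interval 0.657 to 1.04, adjusted p = 0.227, exact binomial test). It lies on chromosome 9 from 71215789 to 71296243. Aldh1a3, known from the developing eye and nasal region, had 16.4 CPM in library 1 and 24.9 CPM in library 2 from 93 and 394 reads. It was lower in library 1 (fold 0.659, interval 0.520 to 0.828, adjusted p = 0.000816, exact binomial test), with a mean of 20.7 CPM ± 6.02 (SD, n = 2). It lies on chromosome 7 from 66390890 to 66427517 on the minus strand.

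Aldh1a1, known from the eye and the liver, was the gene whose libraries stood furthest apart. It had 4.59 CPM (26 reads, interval 3.00 to 6.73 CPM) in library 1 and 21.96 CPM (347 reads, interval 19.7 to 24.4 CPM) in library 2. The intervals do not overlap, and library 1 stood at 0.209 times library 2 (interval 0.135 to 0.312, adjusted p = 1.55e-20, exact binomial test). On the scale of log2(CPM + 1) the difference was -2.04 for library 1 minus library 2. Of the 9192 targets at a mean of 10 CPM or more, 1.46% had a smaller value, that is, leaned further to library 2. The mean, 13.3 CPM ± 12.3 (SD, n = 2), therefore describes neither library. Olfactory, tooth germ, cartilage, osteoblast and most suture and meningeal markers were higher in library 2 as well. Omp, a protein of mature olfactory neurons, was at 11.1 CPM in library 1 and 247 CPM in library 2. All 7 skeletal muscle and all 3 measured liver markers were higher in library 1, the liver markers at a summed 12.9 CPM against 1.52 CPM. None of 4 retina markers reached 1 CPM in both libraries. The part of any of these tissues in the Aldh1a1 difference was not tested. As the libraries are bulk tissue, fewer cells of a type and less RNA per cell cannot be told apart. Aldh1a1 lies on chromosome 19 from 20492715 to 20643465.

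Within the Aldh1a family the makeup differed between the libraries. Aldh1a1 took 11.8% of the family's 220 reads in library 1 (exact binomial 95% interval 7.87 to 16.8%) and 32.1% of its 1081 reads in library 2 (29.3 to 34.98%). Aldh1a2 took 45.9% in library 1 (39.2 to 52.7%) and 31.5% in library 2 (28.7 to 34.3%), and Aldh1a3 took 42.3% (35.7 to 49.1%) and 36.4% (33.6 to 39.4%). In library 1 the ratio of Aldh1a1 to Aldh1a2 reads was 0.257 (interval 0.161 to 0.399), whereas in library 2 it was 1.02 (0.876 to 1.19). Aldh1a3 and Aldh1a2 reads were not separated in either library, at ratios of 0.921 (0.687 to 1.23) in library 1 and 1.16 (1.00 to 1.34) in library 2. These intervals cover the counting of reads and not the efficiency of amplicons, so they bear on the change in makeup and less on which gene is expressed most.

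Among the breakdown genes, most reads fell on Cyp26b1. It had 32.5 CPM (184 reads) in library 1 and 58.0 CPM (917 reads) in library 2, with a mean of 45.3 CPM ± 18.1 (SD, n = 2). Library 1 was lower, at 0.560 times library 2 (interval 0.475 to 0.657, adjusted p = 3.20e-13, exact binomial test). Its level exceeded that of 79.5% of targets in library 1 and 87.4% in library 2. The gene lies on chromosome 6 from 84571414 to 84593908 on the minus strand.

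The other family members had few reads. Cyp26a1, the member that retinoic acid itself is known to induce strongly, had 1.41 CPM (8 reads) in library 1 and 0.633 CPM (10 reads) in library 2, and the libraries did not differ beyond counting error (fold 2.23, interval 0.766 to 6.28, adjusted p = 0.228, exact binomial test). Cyp26c1 had 0 reads in library 1, which allows up to 0.530 CPM, and 5 reads or 0.316 CPM in library 2 (adjusted p = 0.574, exact binomial test). The pair are neighbours on chromosome 19, Cyp26c1 from 37685581 to 37693398 and Cyp26a1 from 37697798 to 37701536. Cyp26b1 took 95.8% of the family's 192 reads in library 1 (91.96 to 98.2%) and 98.4% of its 932 reads in library 2 (97.4 to 99.1%). Its reads outnumbered those of Cyp26a1 by 23.0 to 1 in library 1 (interval 11.4 to 54.1) and by 91.7 to 1 in library 2 (49.6 to 192). Each gene rests on its own amplicon of unknown efficiency, and shares of reads do not measure enzyme activity.

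**Figure D2:**
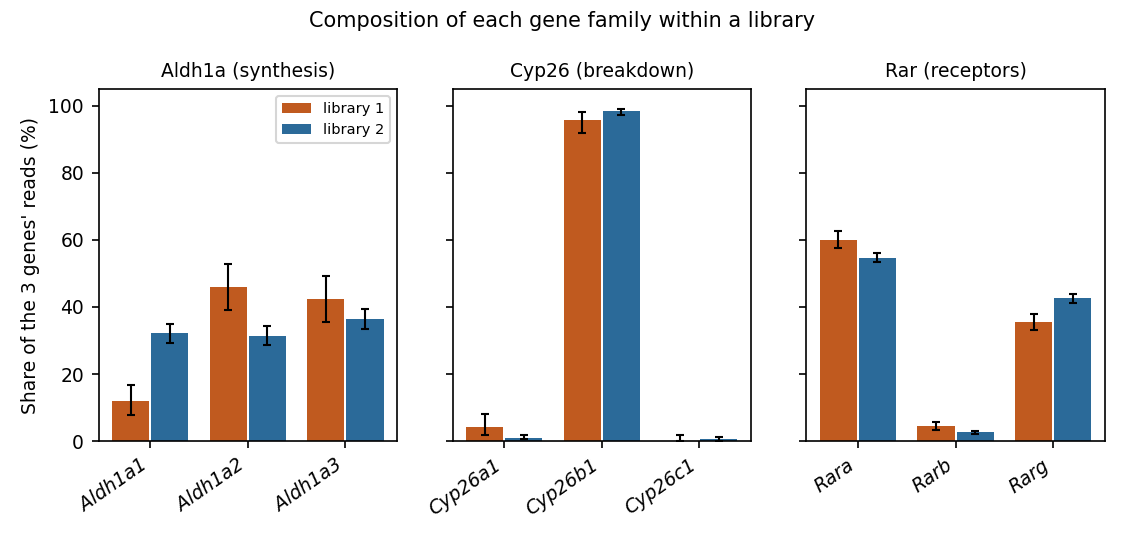
Share of the reads of the Aldh1a, Cyp26 and Rar families that fell on each gene, in percent, in library 1 and library 2; bars are shares and whiskers exact binomial 95% intervals. Cyp26b1 holds over 95% of its family in both libraries, while the share of Aldh1a1 is 11.8% in library 1 and 32.1% in library 2.

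Summed over the family, the Aldh1a genes had 38.8 CPM in library 1 and 68.4 CPM in library 2, and the Cyp26 genes 33.9 and 59.0 CPM. Both sums were thus lower in library 1, by a fold of 0.568 (interval 0.489 to 0.657) for synthesis and 0.575 (0.490 to 0.672) for breakdown. The ratio of Aldh1a to Cyp26 reads was 1.15 (0.940 to 1.40) in library 1 and 1.16 (1.06 to 1.27) in library 2. As each gene has its own amplicon, the value of this ratio is less certain than its comparison between libraries. Aldh1a1 carried 58.8% of the synthesis difference in CPM, whereas the breakdown sum moved with Cyp26b1. Without the gene of highest mean level in each family, Aldh1a3 and Cyp26b1, the ratio was 15.9 in library 1 and 45.8 in library 2. These ratios rest on the few reads of Cyp26a1 and Cyp26c1.

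Rara and Rarg were the most abundant of these genes. Rara, which is expressed in nearly all tissues, stood at 152 CPM (860 reads) in library 1 and 179 CPM (2836 reads) in library 2, above 96.0% and 96.8% of all targets. The difference was small but exceeded counting error (fold 0.846, interval 0.783 to 0.914, adjusted p = 6.90e-05, exact binomial test). Rarg, the receptor known from cartilage and skin, stood at 89.7 CPM (508 reads) in library 1 and 139.98 CPM (2212 reads) in library 2. It was lower in library 1 (fold 0.641, interval 0.581 to 0.706, adjusted p = 6.49e-20, exact binomial test). All 7 cartilage markers were also higher in library 2, led by Col2a1 with 407 CPM in library 1 and 2078 CPM in library 2. Of 6 keratinocyte markers, 3 were higher in library 1, 2 higher in library 2 and 1 was not called. The part of either tissue in the Rarg difference was not tested. The means were 166 CPM ± 19.5 for Rara and 115 CPM ± 35.6 for Rarg (SD, n = 2 each).

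Rarb, the receptor that is itself a classic retinoic acid target, was the scarce one. It had 11.3 CPM (64 reads) in library 1 and 8.80 CPM (139 reads) in library 2, with a mean of 10.05 CPM ± 1.77 (SD, n = 2). The libraries did not differ beyond counting error (fold 1.28, interval 0.940 to 1.74, adjusted p = 0.238, exact binomial test). In its share of the 3 receptors' reads it took 4.47% in library 1 (3.46 to 5.67%) and 2.68% in library 2 (2.26 to 3.16%). Rara took 60.1% in library 1 (57.5 to 62.6%) and 54.7% in library 2 (53.3 to 56.0%), and Rarg 35.5% (33.0 to 38.02%) and 42.6% (41.3 to 44.0%). The order Rara, Rarg, Rarb by reads was the same in both libraries, with Rara over Rarg at 1.69 (1.52 to 1.89) in library 1 and 1.28 (1.21 to 1.36) in library 2. Rara lies on chromosome 11 from 98927818 to 98974942, Rarb on chromosome 14 from 16430839 to 16819156 and Rarg on chromosome 15 from 102234938 to 102257517, the last pair on the minus strand.

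Rarb and Cyp26a1 share a feature of their promoters. Retinoic acid receptors are known to bind 2 half-sites in a row, and the best known spacing is the direct repeat with 5 free bases, called DR5. The RefSeq promoter windows of GRCm38.p6, from 250 bases before to 50 bases after a gene start, were searched on both strands for GGTCA or GTTCA, any 6 bases, and GGTCA or GTTCA again. The sixth free base is the first letter of the second half-site, which was left open. Of the 10 genes 8 had a window, 13 windows in all, and Aldh1a3 and Rdh10 had none. A match was found in Rarb and Cyp26a1, and in 73 (0.270%) of all 27025 genes with a window. None of the 35 other retinoid genes with a window held one. The 250 bases before each start are printed because these are the matches, with the half-sites in capitals, each in the direction of its gene: Rarb at chr14:16575477-16575726, minus strand, and Cyp26a1 at chr19:37697558-37697807, plus strand.
Rarb: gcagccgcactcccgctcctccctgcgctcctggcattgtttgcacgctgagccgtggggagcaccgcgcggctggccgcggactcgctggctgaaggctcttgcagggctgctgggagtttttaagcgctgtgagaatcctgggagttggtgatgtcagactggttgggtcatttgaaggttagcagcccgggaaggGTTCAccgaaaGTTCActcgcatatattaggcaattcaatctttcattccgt
Cyp26a1: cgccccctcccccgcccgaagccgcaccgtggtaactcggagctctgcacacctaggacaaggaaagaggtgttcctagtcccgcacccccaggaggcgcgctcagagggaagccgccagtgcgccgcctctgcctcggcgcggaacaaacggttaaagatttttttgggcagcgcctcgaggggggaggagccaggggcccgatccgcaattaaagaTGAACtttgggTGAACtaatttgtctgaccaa
The Rarb match reads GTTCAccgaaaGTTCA on the strand of the gene, from position -52 to -37, where -1 is the last base before the start. That start is an internal one, since Rarb as annotated in GENCODE M21 begins upstream of it at 16819156 on the minus strand. In Cyp26a1 the repeat runs on the opposite strand, from position -32 to -17, and reads GTTCAcccaaaGTTCA there. A repeat with 2 free bases between the half-sites, the other common spacing, matched none of the 8 genes with a window and 0.463% of all genes. A match is a string of letters and no measure of binding. The pattern was written from the known element, and Rarb and Cyp26a1 are known retinoic acid targets. Their matches are therefore a description and no independent evidence. The mean levels of the genes with a match were 10.05 CPM for Rarb, against 3.29 CPM for the median target, and 1.02 CPM for Cyp26a1.

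Between the libraries, 5 of the 10 genes were called higher in library 2 by the exact binomial test over all 23930 targets, namely Aldh1a1, Aldh1a3, Cyp26b1, Rara and Rarg, and 0 were called higher in library 1. At an unadjusted p under 0.05 the count higher in library 1 was also 0. The test called 37.0% of all targets, 20.0% as higher in library 2 and 17.1% as higher in library 1. It called 69.5% of the targets whose mean was at least 10 CPM, 37.0% as higher in library 2 and 32.5% as higher in library 1. Of the 7 genes here that reach this mean 5 were called, so the number of calls is near that of other well-measured genes. The median difference of those 7 genes was -0.57 on the log2(CPM + 1) scale for library 1 minus library 2, against -0.05 over all 9192 targets at that mean, whose quartiles lay at -0.50 and 0.41. A difference of at least 2-fold with a call was seen for Aldh1a1 alone of the 10, and for 16.5% of targets at a mean of 10 CPM or more.

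**Figure D3:**
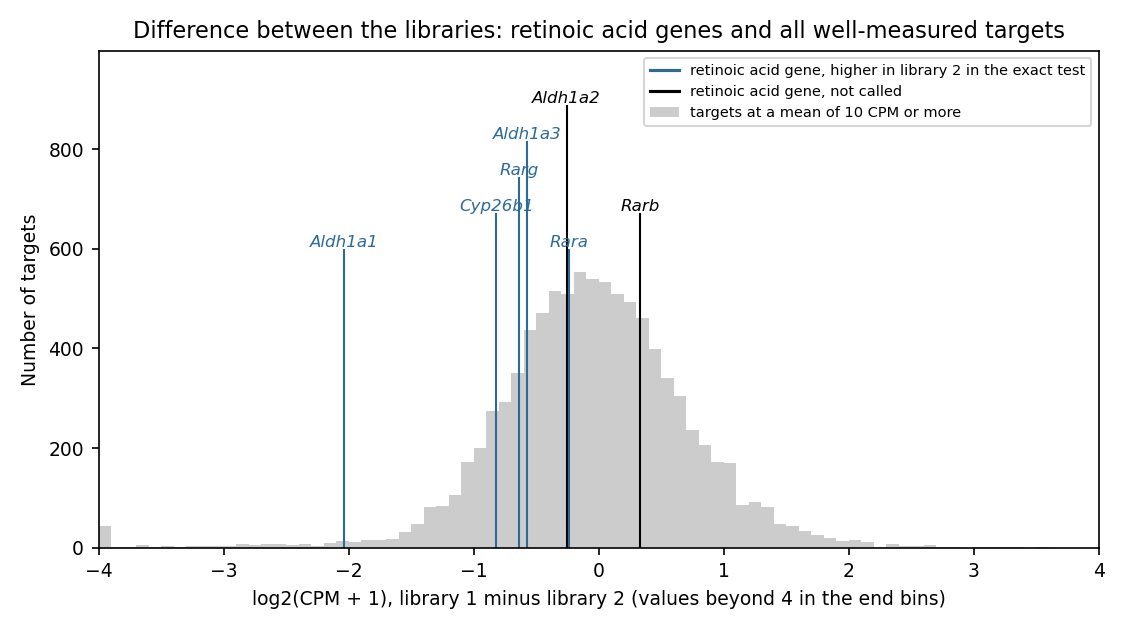
Number of targets at a mean of 10 CPM or more by their difference in log2(CPM + 1), library 1 minus library 2 (grey bars), with a line for each of the 7 retinoic acid genes that reach this mean; blue lines are higher in library 2 by the exact binomial test. Aldh1a1 lies in the left tail at -2.04. The other 6 lie between -0.82 and 0.33, inside the 5th to 95th percentiles (-1.19 and 1.14). Cyp26b1, Rarg and Aldh1a3 lie below the lower quartile of -0.50.

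Other genes of retinoid handling were read from 6 lists holding 49 further genes, of which 46 were measured. Of these, 35 reached 1 CPM in both libraries, 13 were called higher in library 2, 7 higher in library 1 and 26 were not called. Their median difference was -0.05 on the log2(CPM + 1) scale, against 0 over all targets. Of all targets 55.0% reached 1 CPM in both libraries. The test called 20.0% of all targets as higher in library 2 and 17.1% as higher in library 1, the background for the counts of each list below.

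Among 9 genes of retinol uptake, storage and transport, 6 were detected in both libraries (median level 9.05 CPM). The test called 3 as higher in library 2 and 1 as higher in library 1. Stra6, the membrane receptor that takes up retinol from its blood carrier, had 8.65 CPM in library 1 and 32.6 CPM in library 2 (fold 0.265, interval 0.194 to 0.356, adjusted p = 7.43e-25, exact binomial test). Lrp2, a large endocytic receptor that also binds the blood carrier, had 2 reads or 0.353 CPM in library 1 and 141 reads or 8.92 CPM in library 2 (fold 0.0396, interval 0.00475 to 0.146, adjusted p = 2.70e-15, exact binomial test). The opposite direction was seen for Ttr, the blood partner of retinol-binding protein made in liver and choroid plexus. Ttr had 62.7 CPM in library 1 and 4.62 CPM in library 2 (fold 13.6, interval 10.5 to 17.7, adjusted p = 4.06e-130, exact binomial test). All 3 measured liver markers were also higher in library 1, with a summed level of 12.9 CPM against 1.52 CPM in library 2, and their part in the Ttr difference was not tested. Rbp4, that retinol-binding protein, was at 8.65 and 8.29 CPM, Dgat1 at 51.7 and 46.9 CPM, Rbp7 at 10.1 and 8.04 CPM and Rbp2 at 0.530 and 0.633 CPM in library 1 and library 2, none of them called. Lrat, the enzyme that stores retinol as esters, had 0 reads in both libraries, so up to 0.530 CPM is allowed in library 1 and up to 0.190 CPM in library 2.

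Among 15 further oxidoreductases of retinol and retinal, 11 were detected (median level 10.5 CPM), 4 were higher in library 2 and 1 in library 1. Dhrs3, which turns retinal back into retinol and so opposes Rdh10, had 79.99 CPM in library 1 and 102 CPM in library 2. Its reads outnumbered those of Rdh10 by 9.85 to 1 in library 1 (interval 7.26 to 13.6) and 10.7 to 1 in library 2 (9.06 to 12.7), though each rests on its own amplicon. Adh5, a widely expressed alcohol dehydrogenase, led the list by mean level, with 130 CPM in library 1 and 72.0 CPM in library 2 (adjusted p = 1.47e-32, exact binomial test). Dhrs4 was at 45.9 CPM in both. Adh1 and Adh7, alcohol dehydrogenases that accept retinol and were singled out after their values were seen, differed much as Aldh1a1 did. Adh1 had 6.004 CPM in library 1 and 28.4 CPM in library 2 (fold 0.212, interval 0.145 to 0.300), and Adh7 3.71 and 17.3 CPM (fold 0.214, interval 0.130 to 0.333).

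The cytosolic binding proteins and the partner receptors completed the pathway. Crabp2, which brings retinoic acid to its receptors, had 5.83 CPM in library 1 and 14.9 CPM in library 2 (adjusted p = 1.39e-07, exact binomial test). Crabp1 ran the other way, at 3.89 CPM in library 1 and 1.65 CPM in library 2 (adjusted p = 0.0144, exact binomial test). Rxra had 211 CPM in library 1 and 326 CPM in library 2 (fold 0.647, adjusted p = 7.98e-44), Rxrb 116 and 108 CPM (adjusted p = 0.260), and Rxrg, a form known from skeletal muscle and brain, 20.1 and 7.66 CPM (fold 2.63, adjusted p = 5.82e-12), all by the exact binomial test. All 7 skeletal muscle markers were higher in library 1 too, and their part in the Rxrg difference was not tested. The 3 retinoid X receptors had 1.37 reads for each read of the 3 retinoic acid receptors in library 1 (interval 1.28 to 1.47) and 1.35 in library 2 (1.30 to 1.40). These ratios too compare different amplicons.

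All 9 corepressors and coactivators of these receptors were detected (median level 54.0 CPM), 4 of them higher in library 2, 2 higher in library 1 and 3 not called. Each of the 9 had a mean of 10 CPM or more, and of all targets at that mean the test called 69.5%. The most abundant were Ncor1, a corepressor of unliganded receptors, at 104 CPM in library 1 and 139 CPM in library 2, Crebbp, a histone acetyltransferase, at 68.3 and 137 CPM, and Ncoa2, a coactivator, at 50.3 and 101 CPM.

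The last list held genes known to respond to retinoic acid. Of 14 measured, which include Rarb and Cyp26a1, 9 were detected (median level 10.2 CPM). The test called 3 as higher in library 2 and 1 as higher in library 1, and left 10 without a call, beside 37.0% of all targets called. The 3 are Dhrs3, Stra6 and Crabp2, which were also counted in lists above. Tgm2, a crosslinking enzyme, led by mean level, with 113 CPM in library 1 and 89.3 CPM in library 2 (adjusted p = 8.61e-06, exact binomial test). Next came Dhrs3, which was the higher of the pair in library 2 at 102 CPM, and the corepressor Nrip1 at 51.2 and 56.9 CPM. Stra8, a meiosis gene of the gonad, had 0 reads in both libraries. The homeobox genes Hoxb1 and Cdx1, targets in the hindbrain and trunk, had 0 reads in library 1 and stayed below 1 CPM in library 2, at 0.190 CPM for Hoxb1 and 0.253 CPM for Cdx1.

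**Figure D4:**
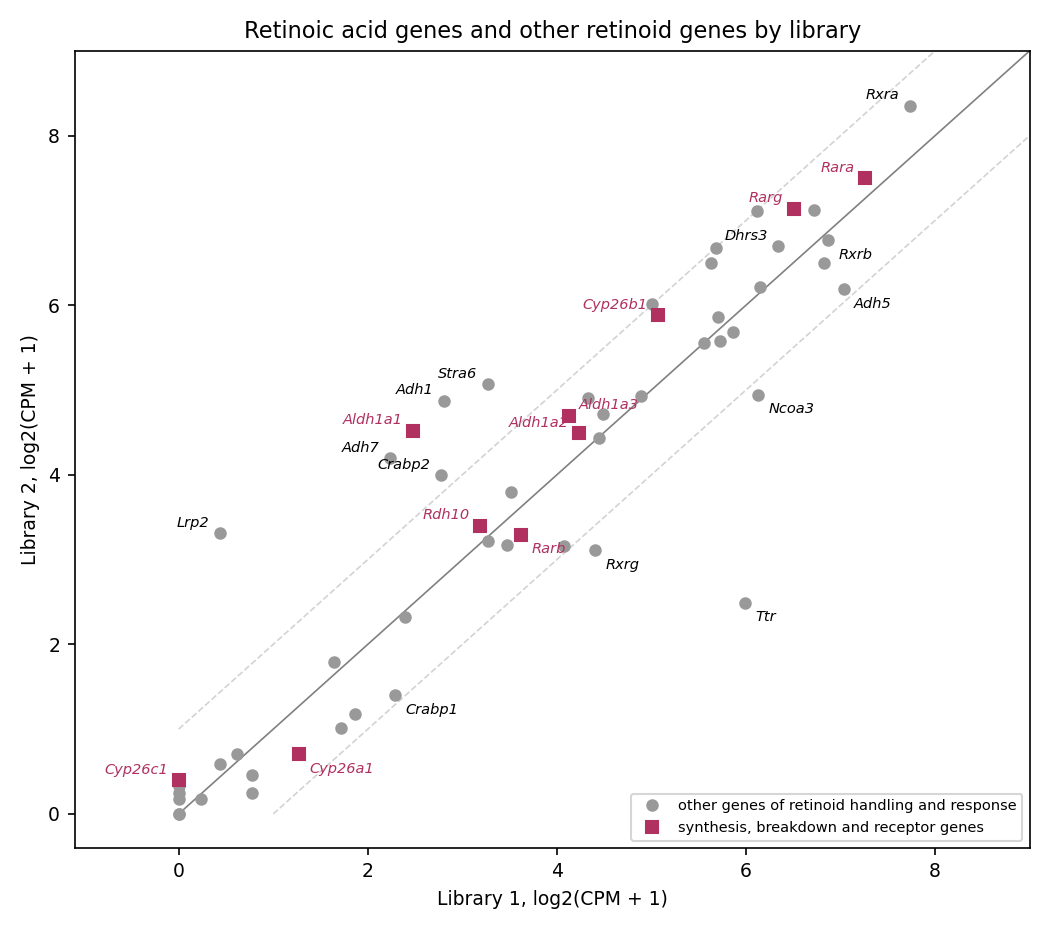
Level in log2(CPM + 1) in library 1 (horizontal) and library 2 (vertical) for the 10 retinoic acid genes (squares) and 46 other retinoid genes (circles); the solid line marks equal values and the dashed lines a difference of 1, with some genes named. Aldh1a1 lies beside Adh1, Adh7 and Stra6 above the upper dashed line, and Ttr lies far below the lower one.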

How the data were processed

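Whole suture tissue gave total RNA on spin columns, and the Ion AmpliSeq mouse transcriptome panel gave the libraries, per the labels' protocols. The authors deposited CPM values, scaled within each library to its own total. The build mm10 comes from the submitters' processing notes, and no aligner or counter is named there. Divided by what 1 read is worth in its library, 100% of the values came out whole to within 0.01 read, which gave back the reads.

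Recovered reads of library 1 and library 2 were tested per target against the ratio of the totals (exact binomial test, two-sided, scipy 1.17.1), with a Benjamini-Hochberg threshold of 0.05 over 23930 targets. The exact binomial and Poisson intervals (95%) and the limit of 3 reads for a count of 0 cover counting error of reads only. The reads carry no molecular identifiers, so amplified copies of the same molecule count as separate reads. Intervals and p-values can therefore understate even the counting error. Log2 differences use a pseudocount of 1 CPM, which understates changes of low genes. Alternatives were edgeR 4.0.16 TMM, DESeq2 1.42.0 size factors, totals without the 10 highest targets, other pseudocounts and filters, and single libraries. The 10 genes and all lists were chosen with earlier results of these data known. The text names these genes, all of the uptake, binding protein and retinoid X receptor lists, the 3 highest of each other pathway list and the 2 highest markers of a list; others were picked after their values were seen. Some genes that this rule takes are counted but not reported here by name. Fabp5, Meis1, Rdh9 and Serpina1b were not analysed here.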

Additional observations from a re-analysis of the deposited data

How the results depend on the processing

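The differences of the 10 genes kept their direction and their side of the threshold under 3 other scalings. Against library totals, these moved log2 differences by only 0.0296 (TMM), 0.0374 (DESeq2 size factors) and -0.0279 (without the 10 highest targets). Such small shifts could hardly change a direction or a call. The 2 other pseudocounts changed only the size of the differences, since the test does not use pseudocounts. All 20 levels from a single library stayed within 1 SD of the mean, which 2 values always do. The 10 genes gave 5 calls higher in library 2 under each scaling and when 9 were tested at a mean of 1 CPM or more, but 1 call, Aldh1a1, when a difference of at least 2-fold was also required. Detected genes numbered 8 without library 1 and 9 without library 2, where Cyp26a1 is added. The ratio of Aldh1a to Cyp26 reads was 1.16 without library 1 and 1.15 without library 2. It averaged 30.8 without Aldh1a3 and Cyp26b1, since 8 to 15 reads of breakdown genes then remain per library. Counts of 0 to 10 reads limit what can be said of Cyp26a1 and Cyp26c1. A difference between libraries leaves nothing to compare once a library is left out. No paired analysis was possible because the series holds 1 group, so no samples of different groups share a number.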

Other observations

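The DR5 repeat of Rarb and Cyp26a1 stood in 73 genes with a promoter window, and 44 of these had a target on the panel. Of the 44, 18 (40.9%) were detected at 1 CPM in each library and 11 at 10 CPM, beside 55.0% and 34.6% of the whole panel. Their median level was 0.869 CPM. The exact binomial test called 6 higher in library 1 and 6 higher in library 2, or 27.3% of the 44, beside 37.0% of all targets. By mean level Rarb was number 13 and Cyp26a1 number 20. The highest, named after their values were seen, were Kif1a, a motor protein of axonal transport, at 94.3 CPM in library 1 and 143 CPM in library 2, Ppp1r11, a phosphatase regulator, at 106 and 92.6 CPM, and Blvrb, a reductase of haem breakdown, at 115 and 71.95 CPM. Bmp6, a bone morphogenetic protein, was also among them, at 24.0 CPM in library 1 and 36.1 CPM in library 2 (adjusted p = 4.99e-05, exact binomial test).

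Markers of the remaining tissues were read as a check of what the libraries held. Their calls stand beside 37.0% of all targets called and 69.5% of those at a mean of 10 CPM or more. All 5 endothelial markers were detected, 4 of them higher in library 1 (summed level 660 CPM, against 466 CPM in library 2), and all 5 macrophage markers were detected (537 and 394 CPM). Keratinocyte markers were detected in 4 of 6 cases (98.5 and 89.7 CPM), with 3 higher in library 1 and 2 higher in library 2. None of 4 retina markers reached 1 CPM in both libraries (1.77 and 4.24 CPM), and no listed marker of the retina was at 0 reads in both.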
